A study of Mus musculus with 11 samples.

Results

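Hepatic stellate cells (HSCs) that were dividing 72 h after liver injury were described in 1 single-cell RNA library. Cells were counted as dividing when their unique molecular identifiers (UMIs, 1 per captured transcript) of Top2a, Birc5, Cenpf, Ube2c and Ccna2 summed to at least 5. Of 7310 cells of the library that had at least 300 genes and at most 30% mitochondrial UMIs, 979 met this rule (13.4%, 95% exact binomial interval 12.6 to 14.2). They were compared with the 4527 cells in which the same sum was 0, called sum-0 cells here, and the 1804 cells with a sum of 1 to 4 were kept apart. Because the rule reads 5 genes of the cell cycle, what follows from it is a description, and no test was run between groups of cells of 1 library.

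All cells came from adult male Pdgfrb-BAC-eGFP mice on a C57BL/6 background, in which the Pdgfrb promoter drives green fluorescent protein in liver mesenchyme. Livers of the 72 h group were taken after a single intraperitoneal dose of carbon tetrachloride (CCl4) in olive oil, a toxin that kills hepatocytes around the central vein. They were digested by retrograde perfusion with pronase and collagenase D, and the HSC fraction was enriched on a density gradient. GFP+ cells negative for the leucocyte marker CD45 and the endothelial marker CD102 were sorted onto a 10X Chromium chip, and each library pooled 3 mice. For comparison there were HSC isolations from uninjured mice and from mice given repeated injections of CCl4 for 6 weeks, and portal fibroblast (PF) isolations of the same conditions, which used another digestion. A value of 1 library has no replicate error, so the intervals below are exact 95% intervals for counting error only.

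Stellate cells are the vitamin A-storing pericytes of the liver sinusoid, quiescent in healthy liver. After injury they lose retinoid stores, enter the cell cycle and take up the secretion of collagen. Cells that commit to division first express the licensing factors, polymerases and nucleotide-making enzymes of S phase, and later the cyclins, kinases, spindle and kinetochore proteins that are made for mitosis and destroyed at its end.

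The dividing cells were deeper than the rest of the library. Their median was 15217 UMIs and 3948 genes per cell, against 10704 UMIs and 3109 genes in sum-0 cells, and the median mitochondrial share was 2.61% against 2.78%. The rule sum had a median of 24 UMIs in dividing cells and a maximum of 166, and 591 of them (60.4%) held UMIs of all 5 genes. At the edge of the rule lay 56 cells with a sum of 5 and 74 with a sum of 4. The mitotic lists described below summed to 5989 counts per 1000000 UMIs (CPM) in the former and 4748 CPM in the latter, and the S phase lists to 1484 and 2150 CPM. Cells just outside the rule thus held more S phase and less mitotic RNA than cells just inside it. The share of cells that met the rule was 6.18% among the cells with 7810 UMIs or fewer, the shallowest of 4 equal groups, and 28.4% among those with 14537 or more. The rule counts raw UMIs, so deeper cells meet it more readily, and the depth of dividing cells is partly set by it. A doublet caller marked 129 dividing cells (13.2%) and 165 sum-0 cells (3.64%). Called doublets were deeper than other dividing cells, with medians of 22270 and 14445 UMIs, and the direction of no list ratio in CPM changed when they were left out. The caller found only 38% of planted pairs of a dividing and a sum-0 cell, so uncalled doublets can remain.

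The same rule was met by 22 of 6850 cells of the uninjured HSC isolation (0.321%, 0.201 to 0.486) and by 42 of 5454 cells of the 6-week HSC isolation (0.770%, 0.556 to 1.04). In the PF isolations 2 of 5737 uninjured cells and 1 of 5648 cells after 6 weeks met it. Libraries differed in depth, with medians of 6718, 11344 and 9893 UMIs per cell in uninjured, 72 h and 6-week HSC isolations. After each cell was thinned to 2000 UMIs, the share was 5.46% (4.95 to 6.00) at 72 h against 0.252% (0.147 to 0.404) in uninjured and 0.293% (0.168 to 0.476) in 6-week HSC isolations, with 0, 114 and 0 shallower cells left out at 72 h, uninjured and 6 weeks. No thinned cell of the PF isolations met it, of which 344 uninjured and 375 6-week cells were too shallow to be thinned. The 72 h share was the highest of the 5 libraries before and after thinning, with 1 library for each condition. Mki67, which codes for the proliferation antigen Ki-67 and is not in the rule, was seen in 19.4% of 72 h cells, 7.71% of uninjured cells and 5.26% of 6-week cells of the HSC isolations, and in 6.53%, 2.49% and 1.25% of them after thinning. In the uninjured and 6-week PF isolations, with medians of 4300 and 5097.5 UMIs per cell, 0.122% and 0.0885% of cells held one. Of the barcodes of the 72 h library, 244 also occurred in another library, among them 33 of dividing cells.

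**Figure D1:**
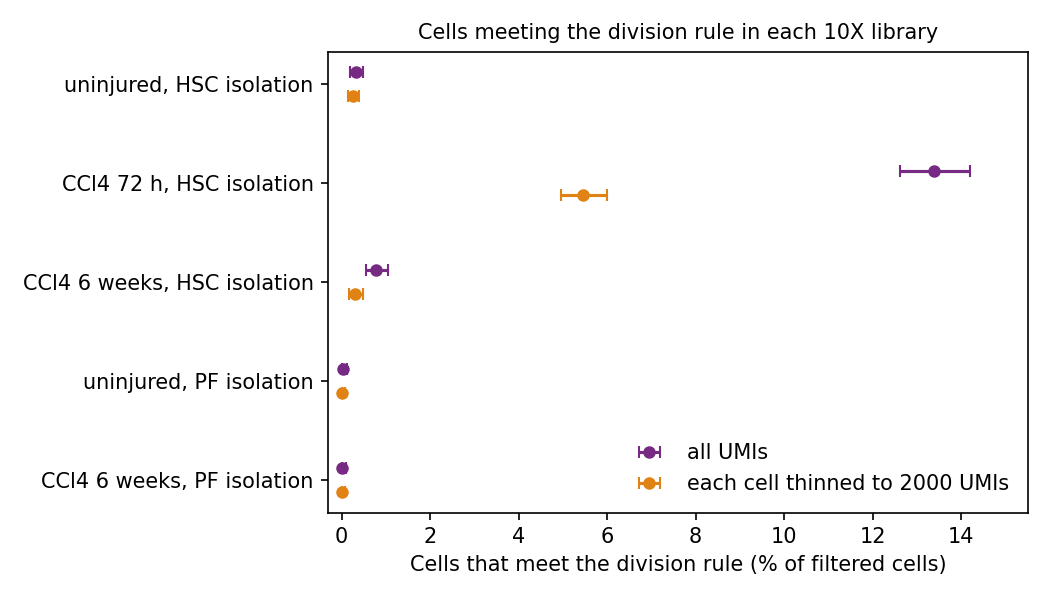
Share of filtered cells that met the division rule (x axis, % of cells) in each of the 5 10X libraries (y axis), with all UMIs (purple) and with each cell thinned to 2000 UMIs (orange); bars are exact 95% binomial intervals. The 72 h library stood at 13.4% and, thinned, at 5.46%, and every other library was below 1%.

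The label of stellate cells was checked against markers. At least 2 of Lrat, the enzyme that esterifies retinol, Reln, a secreted glycoprotein, and Lhx2, a transcription factor of stellate cells, were seen in 970 of 979 dividing cells (99.1%) and in 98.9% of sum-0 cells. With cells thinned to 5000 UMIs, which left out 30 dividing and 541 sum-0 cells, the shares were 92.8% and 97.0%. All 3 genes were seen in 92.4% of dividing and 91.9% of sum-0 cells, and in 61.9% and 79.0% after thinning. No dividing cell carried 3 or more markers of endothelial cells, cholangiocytes, mesothelium, Schwann cells or erythroid cells, where the floor of 3 counts used here comes to a share of 0.306%, while 1 carried those of leucocytes and 3 those of hepatocytes. Cdh5 and Stab2 of the endothelial markers, Ptprc (CD45) and all 5 mesothelial markers were at 0 UMIs. The 6 hepatocyte markers summed to 106 CPM in dividing and 13.6 CPM in sum-0 cells, but 1 dividing cell with 78054 UMIs held 92.8% of those counts, and without it the level was 7.70 CPM. At least 3 of 7 fibroblast markers were seen in 24.1% of dividing cells and 11.4% of sum-0 cells, although their summed level was lower in dividing cells, 257 CPM against 325 CPM, with Gpx3 the most abundant. At least 3 of 6 vascular smooth muscle markers were seen in 73.7% and 61.8%, at summed levels of 1942 and 1951 CPM, with Acta2, which activated stellate cells share, the most abundant. Most dividing cells thus held UMIs of stellate markers, at a lower share than sum-0 cells once thinned, and the share of cells with fibroblast or smooth muscle markers was higher in the deeper group while the levels were not. What share of these UMIs was background RNA from outside the cells was not measured.

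The 5 genes of the rule code for a DNA topoisomerase that untangles sister chromatids (Top2a), survivin of the chromosomal passenger complex (Birc5), a kinetochore protein (Cenpf), a ubiquitin-conjugating enzyme of the anaphase-promoting complex (Ube2c) and cyclin A2 (Ccna2). Promoters of some are shown because the genes that were highest in dividing cells are a classic set of co-expressed genes, known for NF-Y boxes (CCAAT) and for the element called the cell cycle genes homology region (TTTGAA) near their starts. The 150 bases before the RefSeq start of Top2a, Birc5 and Cenpf, of Mki67 and of Mcm5, a subunit of the replicative helicase, are given 5′ to 3′ on the strand of the gene (GRCm38.p6), with CCAAT or TTTGAA or the E2F motifs TTCCCGC and TTGGCGC on either strand in capitals.
Top2a, chr11:99024190-99024339, minus strand: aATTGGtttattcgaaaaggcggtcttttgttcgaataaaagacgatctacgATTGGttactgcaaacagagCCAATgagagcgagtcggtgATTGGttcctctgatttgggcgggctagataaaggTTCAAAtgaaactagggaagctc
Birc5, chr11:117849087-117849236, plus strand: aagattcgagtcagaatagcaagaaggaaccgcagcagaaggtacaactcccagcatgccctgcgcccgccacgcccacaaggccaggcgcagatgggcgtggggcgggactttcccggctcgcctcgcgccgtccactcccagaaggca
Cenpf, chr1:189688087-189688236, minus strand: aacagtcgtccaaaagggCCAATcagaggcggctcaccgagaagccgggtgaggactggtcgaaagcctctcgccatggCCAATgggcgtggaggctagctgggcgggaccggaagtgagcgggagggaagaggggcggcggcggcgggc
Mki67, chr7:135716380-135716529, minus strand: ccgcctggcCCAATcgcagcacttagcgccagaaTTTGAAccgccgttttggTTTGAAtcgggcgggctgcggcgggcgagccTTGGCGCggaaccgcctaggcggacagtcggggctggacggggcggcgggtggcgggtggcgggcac
Mcm5, chr8:75109359-75109508, plus strand: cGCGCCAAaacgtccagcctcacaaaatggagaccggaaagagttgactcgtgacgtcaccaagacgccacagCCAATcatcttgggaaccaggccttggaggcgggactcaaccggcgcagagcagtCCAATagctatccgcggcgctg

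Top2a held 4 CCAAT and 1 TTTGAA in these 150 bases, Cenpf 2 CCAAT, Mki67 1 CCAAT, 2 TTTGAA and 1 TTGGCGC, Mcm5 2 CCAAT and 1 TTGGCGC, and Birc5 none of the 4 motifs. Over the 250 bases before the start, 55 of 79 promoters of the mitotic lists (69.6%) held CCAAT on either strand, against 33.8% of all 32851 promoters of the table. TTTGAA was in 35.4% against 16.0%, and both motifs together were in 27.8% against 5.55%. Of the E2F motifs, TTGGCGC was in 11.4% against 1.97% and TTCCCGC in 6.33% against 3.82%. TTGGCGC read on the other strand ends in CCAA and can overlap CCAAT. These promoters belonged to 73 of the 90 genes of the mitotic lists. For the S phase lists only 60 of 77 genes had a promoter in the table, under 80%, so that check was void and no share is given. The window of Ube2c, which overlaps an annotated gene and is not shown, held 2 CCAAT and 1 TTTGAA. A match of letters is a description of these windows and not a bound site.

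Each rule gene was also read in cells chosen by the other 4 genes, with a sum of at least 4, against cells where the other 4 summed to 0. Top2a then stood at 339 CPM (330 to 348) in 1016 cells against 4.65 CPM (4.08 to 5.29) in 4741 cells, a ratio of 72.9 (64.0 to 83.3). The ratio was 59.4 (53.9 to 65.6) for Birc5, 99.2 (87.1 to 113) for Cenpf, 65.4 (59.6 to 71.9) for Ube2c and 91.8 (78.2 to 109) for Ccna2. Birc5 was seen in 96.2% of the cells chosen by the other genes and in 7.93% of those without them, and Top2a in 70.8% and 4.51%. Each of the 5 genes was therefore concentrated in the cells that the other 4 picked out.

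Across the transcriptome, 7710 genes had a mean level of at least 10 CPM over dividing and sum-0 cells. Of these, 1026 genes (13.3%) were at least 1.5 times as high in dividing cells and 486 (6.3%) were lower by the same factor, with a median ratio of 1.03 over all of them. The rule genes and the S phase, mitotic, histone, chromatin and tubulin lists described below were summed, without the list of G1 genes. Together they made up 36904 CPM of the RNA of dividing cells and 5717 CPM of that of sum-0 cells. Of the former, 2183 CPM were rule genes, which the choice of sum-0 cells sets to 0 there. Since the rule read the cell cycle, the counts of cell cycle genes past this fold carry no further weight, and a gene that passed the 10 CPM filter only through dividing cells had to differ. The sizes of the ratios differed widely between lists, as the plot of list ratios shows.

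**Figure D2:**
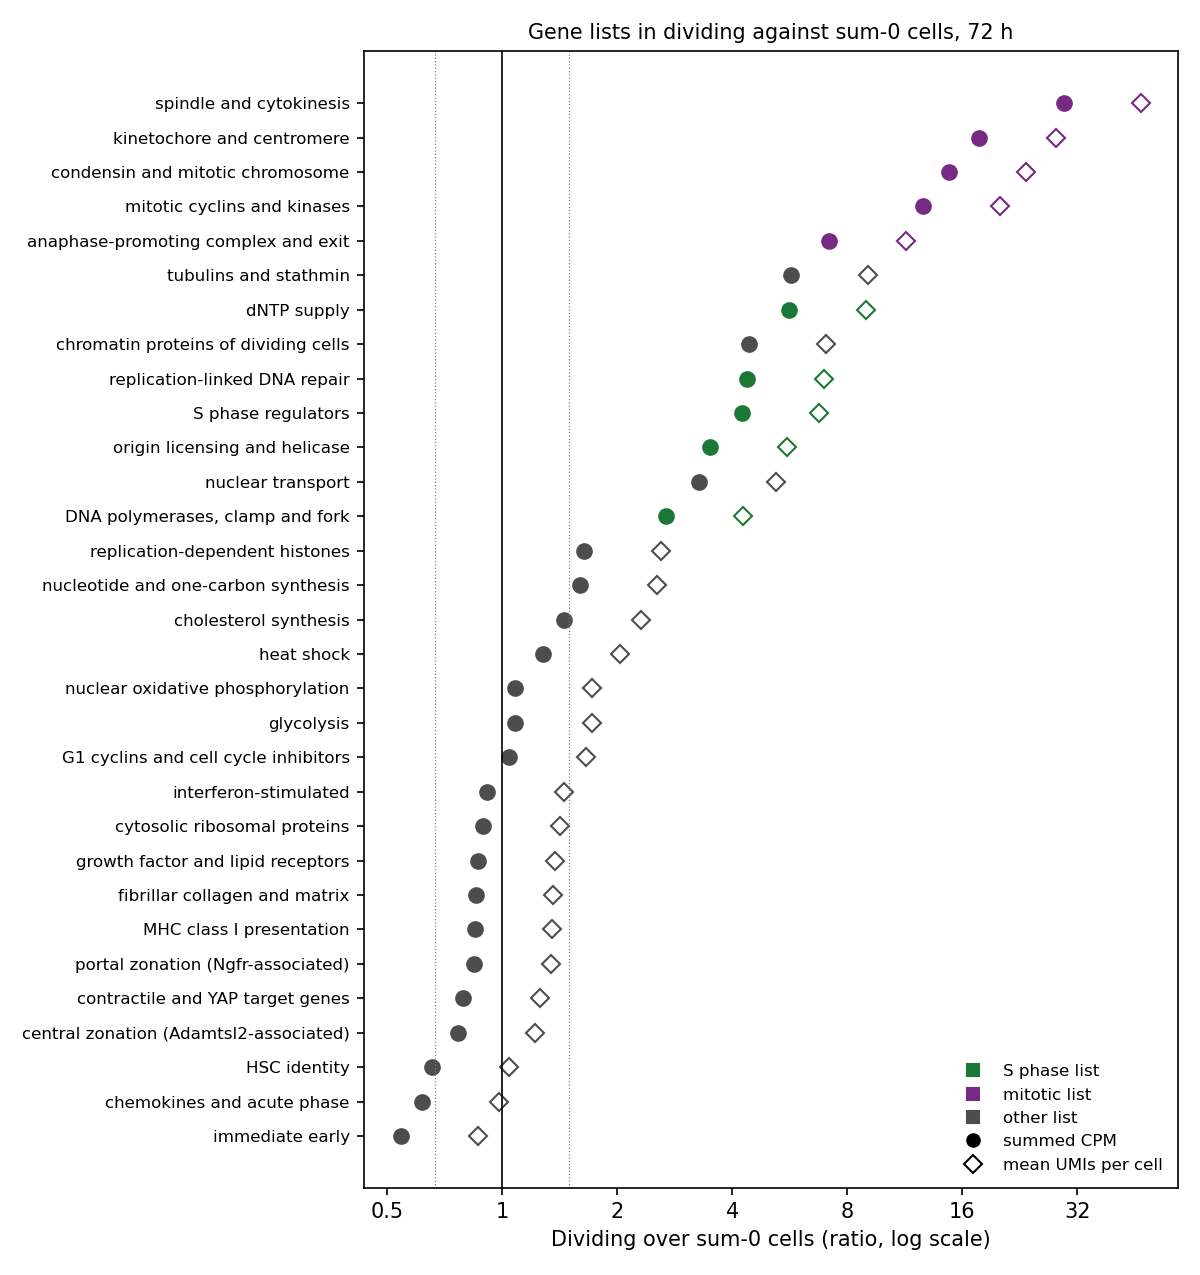
Ratio of dividing over sum-0 cells of the 72 h library (x axis, log scale) for each gene list (y axis), as summed CPM (filled circles) and as mean UMIs per cell (open diamonds); dotted lines mark a ratio of 1.5 in either direction. Mitotic lists (purple) reached 29.5 on the CPM scale and S phase lists (green) 5.64, while HSC identity genes were below 1 in CPM and near 1 per cell.

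The largest ratios were those of the mitotic lists. Without the rule genes, 89 mitotic genes summed to 13640 CPM in dividing and 1012 CPM in sum-0 cells, a ratio of 13.5 (13.4 to 13.6). Of the 83 that passed the filter, 82 were past 1.5 and 1 was not, beside 13.3% higher of all genes tested. The other 6 were below the filter. A listed Sgol2 was not found under that symbol. It is Sgol2a here, which was therefore read among the genes outside the lists. The spindle and cytokinesis list stood highest, at a ratio of 29.5 (28.6 to 30.4). Kifc1, a minus-end kinesin of the spindle, was at 67.9 CPM (64.0 to 71.9) against 0.436 CPM. Nusap1, a microtubule-binding protein of the spindle, was at 209 CPM against 1.41 CPM, and Prc1, which bundles the microtubules of the central spindle, at 363 CPM against 3.69 CPM. Cit, the citron kinase of the cleavage furrow, had the smallest ratio of the list, 1.76, from a level of 49.7 CPM in sum-0 cells.

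Kinetochore and centromere genes followed with a ratio of 17.7 (17.3 to 18.1). Cenpa, the centromeric histone H3 variant, was at 789 CPM against 34.0 CPM, and Casc5, the scaffold on which the kinetochore is built, at 107 CPM against 0.809 CPM. Cdca8, borealin of the chromosomal passenger complex, was at 276 CPM against 5.31 CPM, a ratio of 51.9. The condensin and mitotic chromosome list had a ratio of 14.8 (14.3 to 15.2), in which Mki67 was at 234 CPM against 6.12 CPM and Smc4, a condensin subunit, at 473 CPM against 63.6 CPM. These genes package and attach the chromosomes.

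Mitotic cyclins and kinases had a ratio of 12.6 (12.4 to 12.9). Ccnb1, cyclin B1 of the kinase complex that drives entry into mitosis, was at 305 CPM (297 to 314) in dividing cells and 2.63 CPM (2.20 to 3.14) in sum-0 cells, a ratio of 116. Pbk, a mitotic kinase, had the same ratio of 116, and Aurkb, the Aurora kinase of the passenger complex, one of 99.0. Cdk1, the partner of cyclin B1, was at 368 CPM against 29.4 CPM and Cks2, a small subunit of Cdk complexes, at 1140 CPM against 187 CPM, so that both were also measured in cells without any UMI of the rule. The list of the anaphase-promoting complex and mitotic exit had the lowest mitotic ratio, 7.19 (7.06 to 7.32). Cdc20, the activator of that complex, was at 468 CPM against 5.02 CPM, while Pttg1, securin, was at 93.8 CPM against 72.5 CPM, a ratio of 1.29 and the only mitotic gene above the filter that was not past 1.5.

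S phase genes were higher too, by less. Their 77 genes summed to 2489 CPM against 682 CPM, a ratio of 3.65 (3.60 to 3.71). Of the 47 that passed the filter, 44 were past 1.5, 3 were between and none was lower, beside 13.3% higher of all genes tested. Below the filter were 30 of the 77. The rule itself enters the order of mitotic and S phase ratios. Of the sum-0 cells it left, 66 reached the median S phase level of dividing cells and 0 their median mitotic level. The enzymes that supply deoxynucleotides had the highest ratio of the S phase lists, 5.64 (5.44 to 5.84). Rrm2, the regulatory subunit of ribonucleotide reductase, was at 53.2 CPM against 1.62 CPM, and Tk1, thymidine kinase, at 175 CPM against 8.44 CPM. Replication-linked repair genes had a ratio of 4.39. S phase regulators had one of 4.26, with Dbf4, the activator of the Cdc7 kinase, at 68.6 CPM against 3.46 CPM.

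Origin licensing and helicase genes had a ratio of 3.50 (3.38 to 3.62). Gmnn, geminin, which blocks licensing after S phase has begun, was 10.4 times as high, and Mcm5 6.24 times, at 31.3 CPM against 5.02 CPM. DNA polymerase, clamp and fork genes had the lowest ratio, 2.69 (2.63 to 2.76). Pcna, the sliding clamp of the polymerases, was at 52.5 CPM against 16.4 CPM, Rfc5 of the clamp loader was 7.88 times as high, and Pola2, a subunit of the primase complex, stood at 12.8 CPM against 14.7 CPM. Replication-dependent histones, whose messages mostly lack a poly(A) tail and are poorly caught by poly(A) priming, summed to 627 CPM against 382 CPM. Only 5 of 20 measured histone genes passed the filter. Among them Hist1h2ap was at 226 CPM against 2.03 CPM, and Hist1h2bc, which was past 1.5 in only some of the settings tried, at 169 CPM against 280 CPM. A listed Hist2h2bb was left out because its symbol named more than 1 row.

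Structural proteins that dividing cells need in bulk were also higher. All 16 chromatin genes of the list were past 1.5, beside 13.3% higher of all genes tested, with a summed ratio of 4.43. The list was made of chromatin proteins of dividing cells, so this count carries no further weight. It ran from Lmnb1, lamin B1, at 170 CPM against 6.39 CPM to Hmgn1, a nucleosome-binding protein, at 651 CPM against 430 CPM. Hmgn1 was not past 1.5 in every setting tried. H2afz, a histone H2A variant, was at 2558 CPM against 380 CPM, and Hmgb2, a chromatin architectural protein, at 1339 CPM against 79.0 CPM. Tubulins and stathmin had a ratio of 5.69, with 9 of the 9 genes that passed the filter past 1.5, beside the same 13.3%. Stmn1, stathmin, which destabilises microtubules, was at 1672 CPM against 109 CPM, and Tuba1b at 2040 CPM against 271 CPM. Nuclear transport genes had a ratio of 3.27, led by Kpna2, an importin, at 62.2 CPM against 3.82 CPM, and by Ran, the GTPase of transport and spindle assembly, at 940 CPM against 234 CPM.

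Genes of G1 and inhibitors of the cycle were split. Their summed level was nearly equal in CPM, 1924 CPM against 1846 CPM. Per cell the list was higher in dividing cells, 32.6 UMIs (SD 18.7) against 19.7 (SD 10.7). Of 20 genes that passed the filter 5 were higher, 4 lower and 11 between, beside 13.3% higher and 6.3% lower of all genes tested. Of the Ink4 inhibitors of Cdk4 and Cdk6, Cdkn2c was at 280 CPM against 49.3 CPM, Cdkn2d at 163 CPM against 34.0 CPM and Cdkn2a, a tumour suppressor locus, at 23.4 CPM against 4.25 CPM, while Cdkn2b was under the filter at 3.86 CPM against 3.40 CPM. Cdkn1a, the p21 inhibitor induced by p53, was at 86.7 CPM (82.3 to 91.3) against 33.8 CPM (32.2 to 35.5), a ratio of 2.56. Lower in dividing cells were Ccnd2, cyclin D2, at 143 CPM against 349 CPM, Myc, a transcription factor of growth, at 16.6 CPM against 43.7 CPM, and Btg2, an antiproliferative gene, at 241 CPM against 455 CPM. Cdkn1c, another Cdk inhibitor, was also lower, at 27.7 CPM against 46.6 CPM.

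Stellate identity genes stood lower as a share of RNA and about level per cell. Their 18 genes summed to 10120 CPM in dividing cells and 15398 CPM in sum-0 cells, a ratio of 0.657 (0.654 to 0.661). All 18 had a ratio below 1. Of them 10 were lower by at least 1.5, beside 6.3% of all genes tested, and 8 of the 10 were so in every setting tried. Lrat was at 611 CPM (599 to 623) against 1061 CPM (1051 to 1070), and Colec11, a soluble collectin, at 1346 CPM against 2402 CPM. Lhx2 was closest to level, at 467 CPM against 568 CPM. Counted per cell, however, dividing cells held a mean of 171 UMIs of the list (SD 92.2) and sum-0 cells 164 (SD 77.8), a ratio of 1.05, and of 0.995 when called doublets were left out. All RNA together was 1.59 times as high per dividing cell, 16933 against 10647 UMIs. For Lrat, the mean was 10.3 UMIs (SD 7.87) per dividing cell and 11.3 (SD 7.25) per sum-0 cell. The direction of this list thus depended on the scale. Since the rule is met more readily by deeper cells, it partly sets every ratio per cell given here. How large that part is was not tested.

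Collagen and matrix genes differed little on the CPM scale. None of 18 was past 1.5 in either direction, beside 13.3% higher and 6.3% lower of all genes tested. The summed ratio was 0.852 (0.849 to 0.855). Col1a1 was at 2041 CPM (2019 to 2062) against 2156 CPM (2143 to 2169), Col1a2 at 2642 CPM against 2823 CPM and Col3a1 at 3539 CPM against 4063 CPM. Timp1, an inhibitor of metalloproteinases, had the highest ratio, 1.41, at 231 CPM against 164 CPM. Per cell the list was higher in dividing cells, 532 UMIs (SD 310) against 393 (SD 203), and Col1a1 was 1.51 times as high, with a mean of 34.6 UMIs (SD 40.3) in dividing cells. Acta2, smooth muscle actin of activated stellate cells, was at 876 CPM against 828 CPM, a ratio of 1.06 that turned to 0.709 without cells holding markers of any other cell type, a filter that reads Acta2 itself as a smooth muscle marker, and to 0.955 when smooth muscle markers were not counted for that. Without cells of any other type Timp1 was at a ratio of 0.984.

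Immediate early genes, which respond quickly to stimuli, were lower on both scales. All 9 were lower by at least 1.5 in CPM, 8 of them in every setting tried, with a summed ratio of 0.545 (0.540 to 0.549). Fos was at 1144 CPM (1127 to 1160) against 2024 CPM (2011 to 2037), Jun, its partner in the AP-1 factor, at 665 CPM against 1349 CPM, and Dusp1, a phosphatase that restrains MAP kinases, at 235 CPM against 561 CPM. Per cell, the list was at 69.2 UMIs (SD 63.0) against 79.9 (SD 53.6). Of 11 contractile and YAP target genes above the filter, 5 were lower and none higher in CPM, beside 6.3% lower and 13.3% higher of all genes tested, and 4 of the 5 were lower in every setting tried, at a summed ratio of 0.790, while per cell the list was at 61.8 UMIs against 49.2. Cyr61, a matricellular protein, was at 425 CPM against 867 CPM, while Tpm2, a tropomyosin, was at 463 CPM against 317 CPM and past 1.5 upwards only when cells with markers of other types were left out. Chemokine and acute phase genes were at a ratio of 0.617, with 3 of 5 lower, 1 of them in every setting tried, and at 0.981 per cell, and Ccl2, which draws monocytes and was not past 1.5 in every setting tried, was at 191 CPM against 348 CPM and Cxcl1 was at 166 CPM against 297 CPM. Immediate early genes are also induced by tissue digestion, and that part was not tested.

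Of the metabolic lists, nucleotide and one-carbon synthesis had a summed ratio of 1.60, with 7 of 11 genes above the filter past 1.5 upwards, of which 4 were so in every setting tried, cholesterol synthesis one of 1.45, with 3 of 5, and glycolysis one of 1.08, beside 13.3% of all genes tested that were past 1.5 upwards. Of 14 glycolysis genes, Tpi1 and Pgam1 were past 1.5 upwards and Pgk1, at a ratio of 1.49, was past it in 4 of 11 other settings, with Tpi1 at 228 CPM against 134 CPM, and Aldoa and Hk2 downwards, with Aldoa at 186 CPM against 411 CPM. Psat1, of serine synthesis, was at 31.8 CPM against 6.47 CPM, the largest ratio of 11 nucleotide and one-carbon genes above the filter, and the cholesterol enzyme Fdft1 at 17.8 CPM against 5.58 CPM. Hsp90aa1, an inducible chaperone, was at 303 CPM against 119 CPM, and Hspa1a at 7.78 CPM against 20.3 CPM. No cytosolic ribosomal protein gene of the 81 above the filter was past 1.5 (summed ratio 0.894), nor was any of 10 interferon-stimulated genes, 9 genes of MHC class I presentation or 13 growth factor and lipid receptors, although Psmb9, an immunoproteasome subunit, at 1.49, was past it in 4 of 11 other settings. Per cell the ribosomal, interferon-stimulated, MHC class I and receptor lists were 1.42, 1.45, 1.35 and 1.37 times as high in dividing cells. Of 79 nuclear oxidative phosphorylation genes above the filter 2 were higher and 2 lower, with a summed ratio of 1.08.

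Outside these lists, the 10 largest ratios among genes with at least 50 CPM ran from Cep55, a protein of the final cut between daughter cells, at 66.5 CPM against 0.456 CPM, through Depdc1a, Dlgap5, Fam64a, Fam83d, Sgol2a, Mxd3, C330027C09Rik and 2810417H13Rik, to Cdkn3, a phosphatase of Cdks, at 233 CPM against 4.59 CPM. Dlgap5 stabilises spindle fibres, Sgol2a is a shugoshin that protects cohesion at centromeres, and 2810417H13Rik codes for a protein that binds PCNA. Sgol2a is the Sgol2 of the kinetochore list and stood outside it only through its symbol. Among the 10 largest ratios in the other direction, Hotairm1, a long non-coding RNA of the HoxA cluster, was at 19.7 CPM against 71.5 CPM, Klf4, a zinc finger factor linked to growth arrest, at 27.1 CPM against 80.9 CPM, Mt2, a metallothionein, at 223 CPM against 571 CPM, and Sgk1, a kinase induced by serum and glucocorticoid, at 50.8 CPM against 130 CPM. The other members were Rtn2, Mustn1, Cited2, Klhdc8b, Psen2 and Cdc42ep3.

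S phase and mitotic RNA were then read apart in single cells, since a cell passes through one before the other. Per 10000 UMIs, the median dividing cell held 17.8 S phase UMIs and 138 mitotic UMIs, and the median sum-0 cell 6.05 and 9.56. Among dividing cells the S phase level had a long upper tail. It lay below 10 in 106 of them, from 10 to below 20 in 468, from 20 to below 30 in 190, and then in 51, 45 and 48 cells in each further step of 10, with 60 cells from 60 to below 80 and 11 at 80 or more. The median mitotic level was 84.7 in cells with an S phase level below 10 and 146, 162, 159 and 133 in the next 4 steps of 10. It was 69.1 at 50 to below 60, 76.7 at 60 to below 80 and 70.3 at 80 or more, so that mitotic RNA was highest at middle S phase levels. Cells at 40 or more numbered 164 (16.8% of dividing cells), and 42 cells with a rule sum of 1 to 4 and 15 sum-0 cells were also there. The plot of the cells shows them to the right of the main body of dividing cells.

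**Figure D3:**
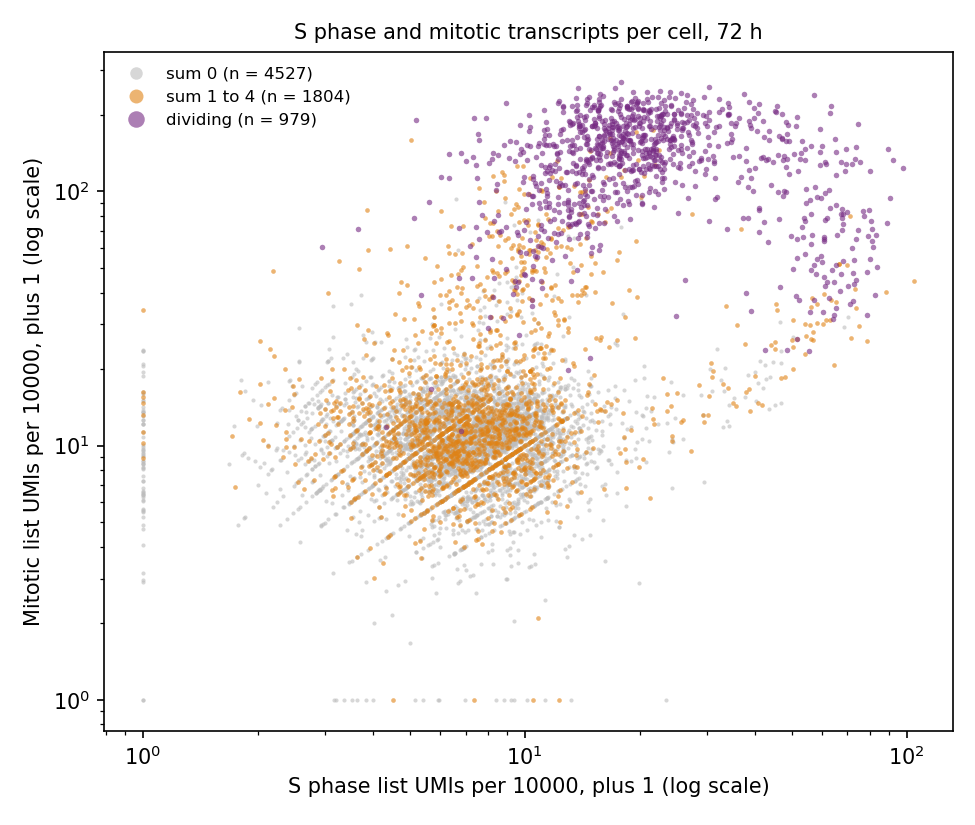
S phase list UMIs (x axis) and mitotic list UMIs (y axis) per 10000 UMIs of each cell of the 72 h library, plus 1, on log scales, without the rule genes; grey points are sum-0 cells, orange points cells with a sum of 1 to 4 and purple points dividing cells. Most dividing cells sit above 60 mitotic UMIs, and the cells with S phase levels of 40 or more lie to the right of most of them.

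Some cells outside the rule were high in S phase RNA. Of these, 158 cells, 66 with a sum of 0 and 92 with a sum of 1 to 4, were at or above the median S phase level of dividing cells. They were picked for the S phase lists, so the levels of list members in them, with Pcna at 129 CPM (115 to 145) and Mcm5 at 101 CPM (88.3 to 115), follow from that choice. The mitotic lists summed to 2115 CPM in them, between the 1012 CPM of sum-0 and the 13640 CPM of dividing cells. Cdk1 was at 55.9 CPM, Cdc20 at 23.2 CPM and Mki67 at 16.1 CPM, each above its level in sum-0 cells, and Ccnb1 at 4.02 CPM (1.84 to 7.64), near its 2.63 CPM there. These levels pool the 66 sum-0 cells with the 92 cells that held rule UMIs, and the part of each was not read apart. No sum-0 cell and 7 cells with a sum of 1 to 4 reached the median mitotic level of dividing cells.

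Dividing cells were ordered by mitotic UMIs as a percentage of S phase and mitotic UMIs, rule genes left out, and cut into 327 S-weighted, 326 middle and 326 mitosis-weighted cells. The percentage ran from 28.9 to 85.5 in the S-weighted cells and from 90.4 to 97.8 in the mitosis-weighted cells, with medians of 17485 and 13874 UMIs per cell. Because the list genes set the order, their levels describe it. Pcna went from 114 through 23.3 to 15.3 CPM, Ccne1, cyclin E1, from 33.4 to 0.568 CPM, and Ccnb1 from 75.7 through 315 to 548 CPM. Mki67 stood at 200 CPM in S-weighted and 278 CPM in mitosis-weighted cells, and Cdk1 at 307 and 473 CPM, so both were present throughout.

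Of 7777 genes tested between the ends of the order, 684 (8.8%) were at least 1.5 times as high in mitosis-weighted and 560 (7.2%) in S-weighted cells. Without the genes that set the order, 635 and 496 of 7629 were, and with the cells cut in 2 groups rather than 3, 340 and 324. Of the rule genes, which did not set the order, Cenpf went from 226 CPM (214 to 239) to 707 CPM (684 to 730) and Ube2c from 328 to 848 CPM, Birc5 and Ccna2 were 1.74 and 1.75 times as high in mitosis-weighted cells, and Top2a was 0.843 times as high there, with its lowest level of 300 CPM between. Replication-dependent histones summed to 1060 CPM in S-weighted, 478 CPM in middle and 305 CPM in mitosis-weighted cells. Hist1h2ap alone was at 561 CPM (542 to 581), 79.1 CPM and 9.09 CPM (6.70 to 12.1). Hmgb2 was 1.75 times and Tubb4b, a beta-tubulin, 2.64 times as high in mitosis-weighted cells. Every cell of the order was chosen by its UMIs of the rule genes, so the spans of those genes are not compared with that of Hist1h2ap.

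**Figure D4:**
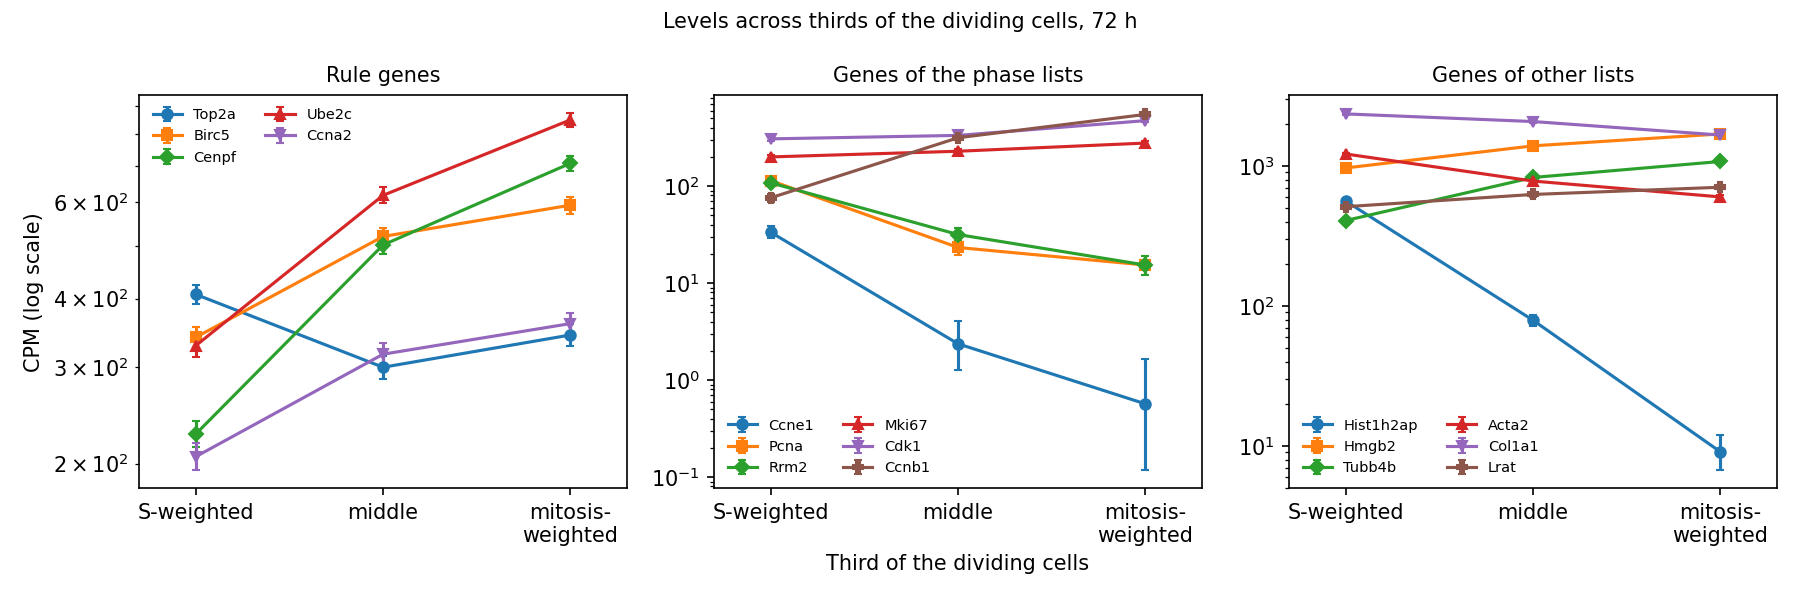
Level (y axis, CPM, log scale, a separate range in each panel) of rule genes, genes of the phase lists and genes of other lists in S-weighted, middle and mitosis-weighted dividing cells of the 72 h library (x axis); bars are exact 95% Poisson intervals. Cenpf, Ube2c and Ccnb1 were highest in mitosis-weighted cells and Pcna, Rrm2, Ccne1 and Hist1h2ap in S-weighted cells, and Lrat and Acta2 went opposite ways.

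Among genes in no list, the largest ratios towards mitosis-weighted cells were those of Arhgap22, Crygs, Tnfaip8l1, Fam110a and Arl6ip1. Arhgap22, a GTPase-activating protein of Rac, was at 6.03 CPM (4.20 to 8.39) in S-weighted and 54.9 CPM (48.8 to 61.6) in mitosis-weighted cells, and Arl6ip1, a membrane-shaping protein of the endoplasmic reticulum, at 405 and 1532 CPM. Towards S-weighted cells they were Ccl5, Ly6d, Rbp4, Tcf19 and Esco2. For Ccl5, Ly6d and Rbp4, 85.6%, 99.0% and 96.5% of the UMIs of all dividing cells came from 1 cell for each gene. The ratio of each of these genes thus rests mostly on 1 cell. Tcf19 was at 123 CPM in S-weighted and 20.3 CPM in mitosis-weighted cells, and Esco2, an acetyltransferase that sets cohesion during replication, at 67.1 and 15.0 CPM.

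Stellate and activation genes also differed along the order. HSC identity genes summed to 9173 CPM (9095 to 9251) in S-weighted and 11361 CPM (11270 to 11452) in mitosis-weighted cells, and Lrat was at 512 and 705 CPM. Acta2 went the other way, from 1218 CPM (1189 to 1246) through 780 to 601 CPM (580 to 622), Col1a1 from 2353 to 1662 CPM and immediate early genes from 5431 to 2755 CPM. The whole matrix list was nearly level, at 31598 and 31296 CPM. The inhibitor Cdkn1a was at 109 and 69.5 CPM, and Cdkn1b, p27, at 39.0 and 77.7 CPM. Mitosis-weighted cells thus held more of their RNA as identity genes and less as Acta2 and Col1a1 than S-weighted cells did, at depths that differed between the groups.

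The position of cells along the sinusoid was read with the genes that the study linked to Ngfr (52 portal genes) and Adamtsl2 (29 central genes) in its uninjured HSCs, which belong to this series. In CPM, 15 of the 52 portal genes and 7 of the 29 central genes were lower in dividing cells at 72 h by at least 1.5, beside 6.3% of all genes tested, and none was higher, beside 13.3%. In every setting tried, 9 of the 15 and 6 of the 7 were lower. Per cell, the portal list was 1.35 and the central list 1.22 times as high in dividing cells. A score of standardised levels, portal minus central, was divided by 2-means into a portal and a central range of cells. The portal range held 25.1% of dividing cells (22.4 to 28.0) and 1043 of the 4527 sum-0 cells (21.8 to 24.3%), and 6.44% of dividing cells lay within 0.1 of the limit. With summed UMIs of the lists in place of standardised levels, the order was the reverse, 27.5% against 34.9%, and with the score cut at the library median it was 57.6% against 48.6%. The direction thus depended on the score, and no difference in zone is read from these shares. Seen from the zones, 14.5% of portal (12.8 to 16.2) and 13.1% of central cells (12.2 to 14.0) met the rule, with medians of 9854 and 12017 UMIs per cell. After thinning to 5000 UMIs these were 12.7% (11.1 to 14.4) and 10.2% (9.36 to 11.0). Division was therefore found in both ranges.

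Within each range, Col1a1 of dividing cells was close to that of sum-0 cells. In the portal range Col1a1 was at 924 CPM (893 to 956) in dividing and 885 CPM (866 to 903) in sum-0 cells. In the central range it was at 2353 CPM (2327 to 2380) and 2478 CPM (2462 to 2494). Other genes were further apart. Timp1 was at 137 CPM in dividing and 98.0 CPM in sum-0 cells of the portal range, and at 257 and 180 CPM in the central range. Acta2 was at 829 and 679 CPM in the portal and 889 and 866 CPM in the central range. Col3a1 was lower in dividing cells, at 1825 and 2075 CPM in the portal and 4019 and 4566 CPM in the central range. Adamtsl2, a secreted matrix protein, was at 154 CPM in dividing and 202 CPM in sum-0 cells of the central range, and Ngfr, the low-affinity neurotrophin receptor, at 353 and 357 CPM in the portal range. Mki67 was at 236 CPM in portal and 234 CPM in central dividing cells. The difference in Col1a1 between ranges was larger than that between dividing and sum-0 cells, while both Ngfr and Adamtsl2 are genes of the score.

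The mitosis-weighted dividing cells were more often in the portal range. It held 38.7% of them (33.3 to 44.2) against 18.0% of S-weighted (14.0 to 22.6) and 18.7% of middle cells (14.6 to 23.4). The shares were 38.3%, 23.1% and 20.9% after thinning and 37.1%, 23.5% and 21.8% with summed UMIs. With the score cut at the library median instead, they were 59.5%, 62.1% and 51.2%, and the S-weighted cells were then no lower. Lower Col1a1 and Acta2 in mitosis-weighted cells stood beside this difference in range, and its part in them was not tested.

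Across all cells of the library, the share that met the rule was set beside the levels of HSC markers and collagens and the zonation score, and of these 3 measures it varied most with HSC markers. Among the cells lowest in the summed level of 12 markers, the lowest of 4 equal groups, 29.5% met it (27.4 to 31.6), then 10.8%, 8.42% and 4.87% (3.93 to 5.96) in the highest group. With cells thinned to 5000 UMIs the shares were 21.9%, 9.90%, 7.25% and 4.11%. By the level of Col1a1, Col1a2 and Col3a1 they ran from 14.7% (13.1 to 16.4) to 12.5% (11.0 to 14.1), and by the zonation score from 10.1% in the most central group through 12.6% and 16.3% to 14.6% in the most portal. Depth of dividing cells and the larger share of cell cycle RNA enter the marker level per UMI, and their parts were not tested. Counted per cell, the 12 markers were about level, at a mean of 99.2 UMIs (SD 60.8) in dividing and 96.0 (SD 51.9) in sum-0 cells.

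**Figure D5:**
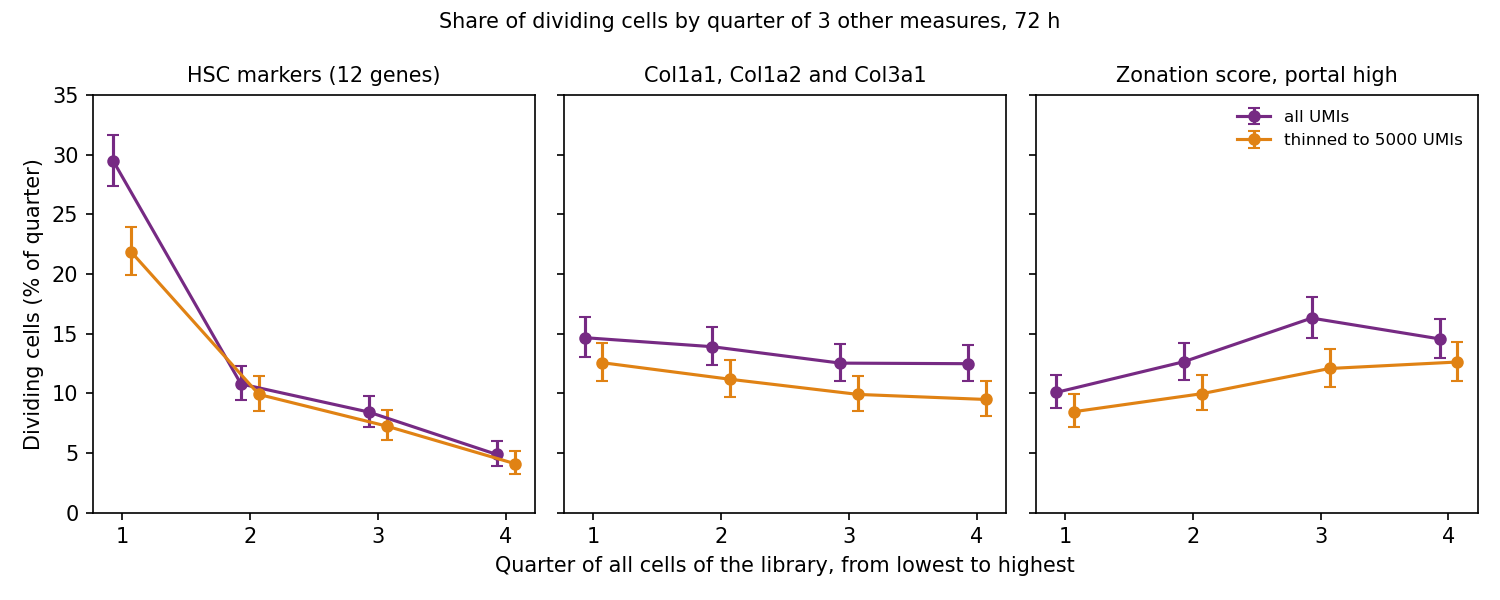
Share of cells that met the division rule (y axis, %) in 4 equal groups of the cells of the 72 h library (x axis, from lowest to highest) by the level of 12 HSC markers, by the level of Col1a1, Col1a2 and Col3a1, and by the zonation score, with all UMIs (purple) and cells thinned to 5000 UMIs (orange); bars are exact 95% binomial intervals. The share went from 29.5% to 4.87% across HSC markers and varies by few points across collagens.

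The few cells that met the rule in the other HSC isolations were set beside these. In 42 cells of the 6-week library, mitotic genes had a ratio of 17.9 (17.5 to 18.3) to sum-0 cells of that library and S phase genes one of 3.38 (3.20 to 3.57), and in 22 cells of the uninjured library 17.7 (17.2 to 18.1) and 7.60 (7.23 to 7.98). At least 2 of Lrat, Reln and Lhx2 were seen in 42 and 21 of them. HSC identity genes were at a ratio of 0.676 at 6 weeks and 0.477 in uninjured liver. Genes past 1.5 upwards made up 23% of 7797 tested at 6 weeks and 27.6% of 8221 in uninjured liver, and downwards 13.6% and 18.3%. Of the 1026 genes higher at 72 h, 971 were measured at 6 weeks and 815 were also higher, and 1000 were measured in uninjured liver and 840 also higher. Of the 486 lower, 300 of 436 and 311 of 426 were also lower. The same rule chose the dividing cells of each library, so rule genes and other cell cycle genes had to recur. The 1026 genes include them, and the overlap is not a replication.

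Acta2 had larger ratios in the dividing cells of both other libraries than at 72 h. It was at 566 CPM (512 to 624) against 142 CPM (139 to 146) in sum-0 cells at 6 weeks and at 313 CPM (251 to 387) against 24.7 CPM (23.2 to 26.2) in uninjured liver, beside 876 against 828 CPM at 72 h. Col1a1 was at 292 CPM against 661 CPM at 6 weeks and, in uninjured liver, at 470 CPM in dividing cells, 2.35 times the level of sum-0 cells. Cdkn1a was 2.16 times as high in dividing cells at 6 weeks and 6.73 times in uninjured liver, beside 2.56 times at 72 h. Ccnb1 was at 456 CPM at 6 weeks and 397 CPM in uninjured liver, against 0.573 and 0.288 CPM in sum-0 cells. At least 3 vascular smooth muscle markers, among them Acta2, were seen in 27 of the 42 and 5 of the 22 cells, and at least 3 fibroblast markers in 5 and 0. These ratios rest on the cells of 1 library each and the differences between libraries were not tested.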

How the data were processed

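Gene-by-cell UMI counts were deposited by the authors, 1 table for each of 5 10X libraries. The submitters' processing notes name Cell Ranger 2.1.0, STAR and mm10. The Smart-seq2 plates were not used here. The 72 h library held 7311 deposited barcodes and 86664085 UMIs in the 7310 cells kept, and the other libraries 25965670 to 52235706 UMIs. The members, gene lists and thresholds were chosen with earlier results of these data known. UMIs were summed per group and scaled to CPM. A gene was called past a fold of 1.5 at a mean of at least 10 CPM over both groups. Intervals were exact (Poisson for CPM, Clopper-Pearson for shares, conditional binomial for ratios). Thinning drew UMIs without replacement. Doublets were scored against simulated sums of cell pairs (50 neighbours, 20 components, 2000 variable genes, 0.8% per 1000 cells), which found 38% of 100 planted pairs of a dividing and a sum-0 cell, and were kept except in an alternative. Zonation scores were the mean standardised log level of portal minus central genes. On simulated counts for the 72 h comparison, all 50 genes changed 2-fold were called among 7580. Those counts were pooled and held no variation between cells or mice. The check therefore does not cover calls that rest on few cells. Genes named were the rule genes, at most 6 a list by level and ratio, the proliferation and collagen genes of the study, and the largest ratios among unlisted genes at 50 CPM or more. Computation used SciPy 1.17.1, pandas 2.3.3 and NumPy 2.4.6 under Python 3.11.15, doublet neighbours scikit-learn 1.9.0, and plots matplotlib 3.10.9. Gene promoters came from RefSeq (GRCm38.p6).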

Additional observations from a re-analysis of the deposited data

How the results depend on the processing

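Of 255 list and named genes past 1.5, 237 were past it in every one of 11 settings and 0 were past it in the opposite direction in any. Those that were not were Orc6, Hist1h2bc, Hmgn1, Shmt2, Nme1, Prps1, Des, Ecm1, Ankrd1, Ccl2, Ccl7, Fosb, Ndufa4l2, Susd2, Cyp4b1, Disp2, Gja4 and Ano1. Of 151 that were not past 1.5, 37 were past it in at least 1 setting. The list ratios of dividing over sum-0 cells in CPM kept their direction in these settings, while per cell HSC identity, matrix and contractile lists were at 1.05, 1.36 and 1.26. Ribosomal, interferon-stimulated, MHC class I and receptor lists, also below 1 in CPM, were at 1.42, 1.45, 1.35 and 1.37 per cell. These ratios per cell are partly set by the rule, which reads raw UMIs. With a rule sum of at least 3, the CPM ratios of S phase, mitotic, HSC identity and matrix lists were 3.50, 12.4, 0.667 and 0.849. In the same order they were 3.75, 14.6, 0.647 and 0.859 with at least 10, and 3.82, 14.3, 0.649 and 0.847 without called doublets. With the median gene ratio set to 1 they were 3.54, 13.1, 0.637 and 0.825. Without cells that held 3 markers of any other type, which kept 225 dividing and 1626 sum-0 cells because smooth muscle markers are common, mitotic, HSC identity and matrix ratios were 14.7, 0.700 and 0.811. With each cell weighted equally those were 13.1, 0.663 and 0.848. In thinned cells HSC identity and matrix ratios were 0.664 and 0.843, and against 3265 sum-0 cells of like depth the matrix ratio was 0.846. After the data were seen, 2 settings were added. Leaving out cells of other types but smooth muscle gave 3.57, 13.7, 0.689 and 0.830 and a dividing share of 11.8%, and leaving out the cell with hepatocyte UMIs gave a matrix ratio of 0.855.

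Without the CPM filter 4644 genes were higher and 2160 lower, since many low genes then enter. With the median ratio set to 1, 61.7% of calls were upward, against 67.9%. The dividing share was 16.0% at a sum of 3, 10.4% at 10, 12.3% without doublets, 9.43% without other types and 10.8% thinned to 5000 UMIs. Across libraries, thinning to 2000 UMIs gave 5.46% at 72 h, 0.293% at 6 weeks and 0 in both PF isolations, and a sum of 3 gave 1.06% at 6 weeks. With the zonation score cut at its median, 57.6% of dividing and 48.6% of sum-0 cells were portal. Cut in 2 groups rather than 3, 340 genes were higher in the mitosis-weighted and 324 in the S-weighted dividing cells. At 6 weeks a sum of 3 gave S phase and mitotic ratios of 3.14 and 15.8. No paired analysis was possible because each condition is 1 library. The causes of these shifts were not tested. Few cells limit the values of the 22 and 42 dividing cells outside the 72 h library, and the 3 mice pooled in a library cannot be told apart.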
